A study of Mus musculus with 2 samples.

Results

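Galectins are lectins that bind β-galactosides. They were followed here as a gene family in the mRNA-seq of mouse intestinal organoids (mIOs), together with the galectin-3 binding protein Lgals3bp. The members were chosen by gene symbol from a list of 8 names, of which 7 (Lgals1, Lgals2, Lgals3, Lgals4, Lgals8, Lgals9 and Lgals3bp) were among the 19294 genes of the count table. Lgals6 had no row in the table and no entry in the annotations of GRCm38 used here, and is not analysed here.

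The mIOs were grown from jejunal crypts of Lgr5-EGFP-IRES-creERT2 mice, which express EGFP from the Lgr5 locus. Both libraries have this genotype. The labels name the cell type as intestinal stem cells, and the number of animals is not stated. The cultures were kept in Matrigel with EGF, Noggin and R-spondin. The control library came from a control culture at day 4 and the DSS library from a culture treated for 4 days with dextran sulfate sodium (DSS), a polysaccharide used to induce gut inflammation. The DSS concentration used for sequencing and the age of the mice are not given in the sources used here. Each condition is 1 library, with 65493032 counts in control mIOs and 59746968 counts in DSS-treated mIOs. Without replicates, nothing was tested between the conditions, and "higher" or "lower" compares these 2 libraries only. Levels are given as CPM, the counts of a gene relative to the TMM-scaled total of its library, which are not corrected for transcript length. Differences are log2 ratios of scaled counts in DSS-treated over control mIOs. Their 95% intervals (exact Clopper-Pearson) cover counting error only. In bulk RNA, fewer cells of a type and less RNA per cell cannot be told apart.

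Galectins share a carbohydrate recognition domain and fall into structural classes. Prototype galectins such as galectin-1 and galectin-2 carry a single domain, galectin-3 is the chimeric form with a long N-terminal tail, and the tandem-repeat galectins 4, 8, 9 and 12 join a pair of domains by a linker. They are made in the cytosol, leave the cell without a signal peptide, and cross-link glycoproteins and glycolipids outside the cell, or bind glycans exposed on damaged vesicles inside it. In the gut, galectin-4 is known as an epithelial lectin that gathers glycolipids and brush border enzymes at the apical membrane.

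The promoter windows of 4 members are shown because these genes represent the abundant pair of the family, Lgals4 and Lgals2, the chimeric form Lgals3, and a member with interferon-type motifs, Lgals9. RefSeq promoter entries were matched for 6 of the 7 members by symbol, in the build GRCm38.p6. The counts themselves carry no coordinates. Each window runs from 250 bases before the annotated start to 30 bases after it, 5′ to 3′ on the strand of the gene. Matches on either strand to any of 8 motifs are in capitals. The motifs were TATAAA (the core promoter box), TGANTCA (AP-1), TTCNNNGAA (GAS, bound by STAT factors), the interferon element ISRE, CTTTGAT (TCF/LEF), GGGCGG (SP1), CAAAGTCC (HNF4) and TTTATNG (CDX2). None of the matches in these windows overlapped another.
Lgals4: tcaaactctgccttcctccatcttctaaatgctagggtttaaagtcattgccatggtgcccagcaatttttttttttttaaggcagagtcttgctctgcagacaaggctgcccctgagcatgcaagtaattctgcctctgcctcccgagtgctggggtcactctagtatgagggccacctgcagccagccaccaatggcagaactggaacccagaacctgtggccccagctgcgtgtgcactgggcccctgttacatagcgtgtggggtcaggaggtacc
Lgals2: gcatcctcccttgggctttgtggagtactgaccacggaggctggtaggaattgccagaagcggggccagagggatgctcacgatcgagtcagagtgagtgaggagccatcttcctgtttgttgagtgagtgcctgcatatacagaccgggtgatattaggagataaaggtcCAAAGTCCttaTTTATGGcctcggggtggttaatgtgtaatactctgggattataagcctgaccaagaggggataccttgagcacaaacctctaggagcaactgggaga
Lgals3: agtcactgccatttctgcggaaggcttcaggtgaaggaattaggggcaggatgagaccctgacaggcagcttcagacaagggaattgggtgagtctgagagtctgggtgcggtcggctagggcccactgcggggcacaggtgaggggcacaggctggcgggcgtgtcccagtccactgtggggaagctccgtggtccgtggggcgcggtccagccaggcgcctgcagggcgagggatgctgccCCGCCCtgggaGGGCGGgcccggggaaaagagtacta
Lgals9: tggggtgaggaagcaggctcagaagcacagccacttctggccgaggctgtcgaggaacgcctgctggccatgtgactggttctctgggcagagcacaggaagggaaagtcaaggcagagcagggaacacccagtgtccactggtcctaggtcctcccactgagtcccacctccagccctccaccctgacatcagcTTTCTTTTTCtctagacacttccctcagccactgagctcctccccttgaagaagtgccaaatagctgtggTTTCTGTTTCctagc

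The Lgals4 window lies at chr7:28833544-28833823 on the plus strand and holds none of the 8 motifs. It follows the RefSeq start and ends before the start of Lgals4 in the GENCODE annotation, at 28833854. The Lgals2 window, at chr15:78855500-78855779 on the minus strand, has the HNF4 letters at position -79 from the start and the CDX2 letters at -68. Among 32851 promoter windows of the same length, 1.36% hold the HNF4 letters and 10.5% the CDX2 letters. The Lgals3 window, at chr14:47373610-47373889 on the plus strand, has a G+C content of 66.1% and the SP1 letters on both strands, at -7 and at 5, which are found in 34.7% of all windows. The Lgals9 window, at chr11:78984895-78985174 on the minus strand, has the ISRE letters at -55 and at 16, which 3.28% of all windows hold at least once. The Lgals9 window was shown because of this match, so the share of all windows is no test of it. The windows of Lgals8 and Lgals3bp, which are not printed, held none of the 8 motifs. A match of letters is a description of the window and no binding was measured.

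The galectins differed between the libraries in both directions, and Lgals4 made up more of their sum after DSS. Lgals4 was 2.20-fold and Lgals3 2.27-fold higher in the DSS library, whereas Lgals1 was 7.39-fold lower. Lgals8 and Lgals9 were 1.51-fold and 1.44-fold higher, Lgals2 was 1.17-fold lower and Lgals3bp 1.12-fold higher. All 7 members had 10 or more counts in one or both libraries. Of these, 2 reached a log2 ratio of 1 and 1 reached -1, beside 19.3% and 20.2% of the 17235 genes with that many counts, so the number of members past these lines is close to the share of all genes. Among the 8960 genes with 1000 or more counts in a library, 12.8% reached 1 and 17.7% reached -1. The median log2 ratio was 0.53 over the members and -0.06 over all genes, and the median absolute log2 ratio was 0.60 over the members and 0.76 over all genes.

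**Figure D1:**
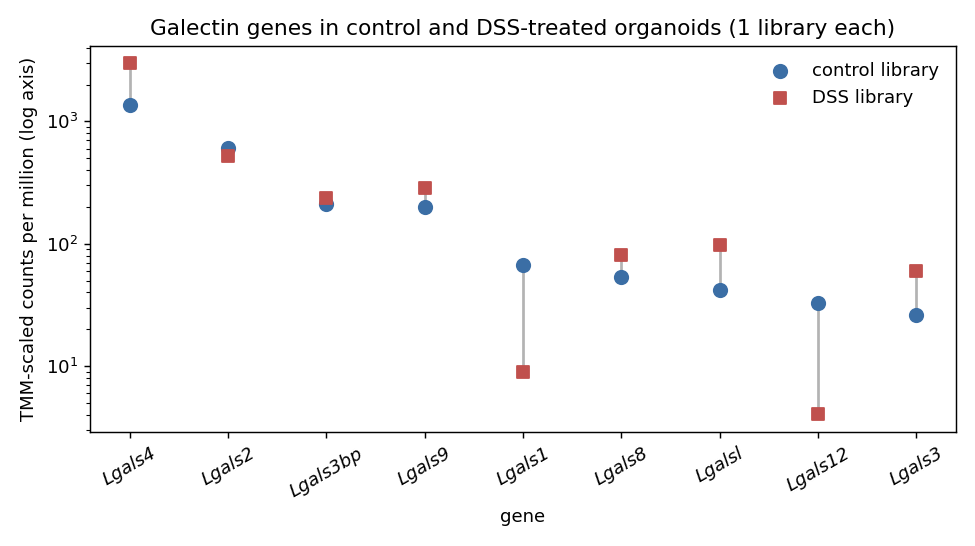
TMM-scaled CPM (log axis) of the 7 members and of Lgals12 and Lgalsl in the control library (circles) and the DSS library (squares), in the order of the control level, with 1 library per condition and no error bar. Lgals1 and Lgals12 have the longest lines, both downward, to 9.02 and 4.04 CPM, and Lgals4 lies above all others in both libraries.

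**Figure D2:**
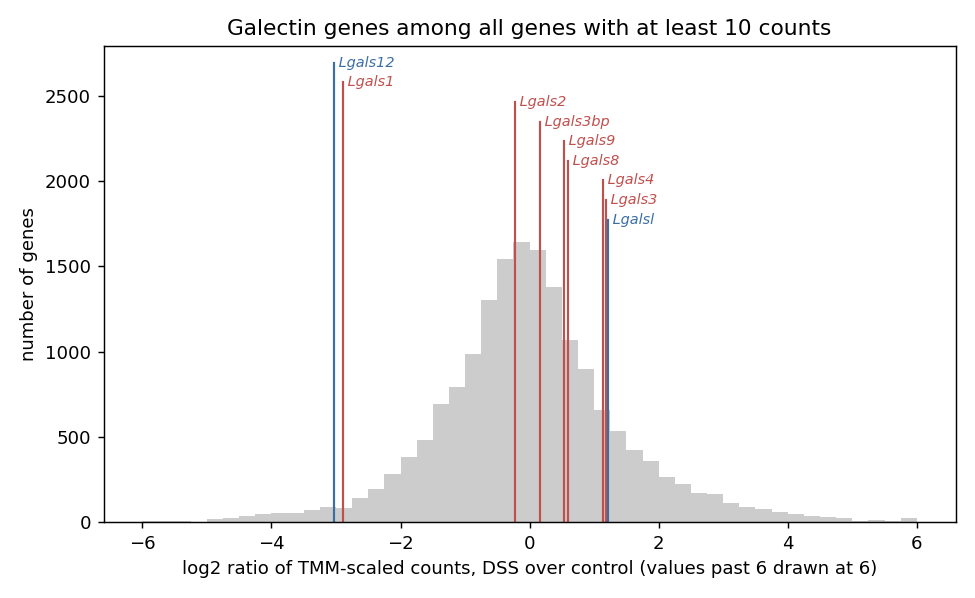
Number of genes (vertical axis) by log2 ratio, DSS over control (horizontal axis), for 17235 genes with 10 or more counts in either library, with a line for each member (red) and for Lgals12 and Lgalsl (blue). Most members lie near the center of the distribution, while Lgals1 at -2.89 and Lgals12 at -3.03 lie in its left tail.

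Lgals4 encodes the tandem-repeat galectin of the brush border. It had 96685 counts in control mIOs and 162800 counts in DSS-treated mIOs, or 1351 and 2978 CPM. It was the most abundant member by counts in both libraries, at rank 66 of all genes in the control and rank 27 in the DSS library. It took 0.148% of all control counts, with an interval from 0.147% to 0.149%, and 0.272% of all DSS counts, with an interval from 0.271% to 0.274%. Its log2 ratio of 1.14 (interval 1.13 to 1.15) was above that of 83.1% of all genes. Scaled by total counts alone it was 0.88 and no longer past the line of 1.

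Lgals3, the chimeric galectin, which also gathers at damaged lysosomes, had 1869 counts in control mIOs and 3248 counts in DSS-treated mIOs, or 26.1 and 59.4 CPM. Its log2 ratio of 1.19 (interval 1.10 to 1.27) was the highest of the members and was 0.93 with total counts. The counts of Lgals3 per count of Lgals4 were 0.0193 in control mIOs and 0.0200 in DSS-treated mIOs, so both genes differed between the libraries by nearly the same factor although their counts are far apart. The change of this ratio between the libraries was 0.05 on the log2 scale, with an interval from -0.04 to 0.13. A ratio of 2 genes within a library does not depend on how the libraries are scaled.

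Lgals1 encodes the prototype galectin that is best known from mesenchymal and immune cells. It had 4771 counts in control mIOs and 493 counts in DSS-treated mIOs, or 66.7 and 9.02 CPM, and moved from rank 2936 to rank 9023 of all genes. The log2 ratio was -2.89, with an interval from -3.02 to -2.75, and 2.63% of all genes had a lower one. It was the only member past -2, a line that 6.54% of all genes reached, and 5.38% of those with 1000 or more counts. Lgals1 entered the set with 1000 or more counts through the control library only, where it is higher, so that share is given as background only. No member reached 2, as 7.87% of all genes did.

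Lgals2, the second prototype galectin, was the second most abundant member by counts. It had 43550 counts in control mIOs and 28431 counts in DSS-treated mIOs, or 608 and 520 CPM. The log2 ratio was -0.23, with an interval from -0.25 to -0.21, and stayed below 0 under the 3 other scalings. Lgals2 and Lgals1, both with a single recognition domain, thus differed between the libraries by unequal factors. The counts of Lgals2 per count of Lgals1 were 9.13 in control mIOs and 57.7 in DSS-treated mIOs.

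The tandem-repeat galectins Lgals8 and Lgals9 had log2 ratios near each other. The other tandem-repeat genes lay apart from them, with Lgals4 at 1.14 and Lgals12 at -3.03. Lgals9, a ligand of Tim-3 on T cells, had 14212 counts in control mIOs and 15644 counts in DSS-treated mIOs, or 199 and 286 CPM, and a log2 ratio of 0.53 (interval 0.49 to 0.56). Lgals8, which marks damaged vacuoles for autophagy, had 3811 and 4410 counts, or 53.2 and 80.7 CPM, and a log2 ratio of 0.60 (interval 0.54 to 0.66). Both lay within 1 of 0, as did 60.5% of all genes. The counts of Lgals8 per count of Lgals9 were 0.268 in control mIOs and 0.282 in DSS-treated mIOs. This is a change of 0.07 on the log2 scale, with an interval from 0.002 to 0.14.

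Lgals3bp is a secreted, heavily glycosylated ligand of galectin-3 and not a lectin of the family. It had 15068 counts in control mIOs and 12888 counts in DSS-treated mIOs, or 211 and 236 CPM. Its log2 ratio of 0.16 (interval 0.13 to 0.20) turned to -0.09 with total counts, so its direction depends on the scaling. It lay 0.22 above the median of all genes. The counts of Lgals3bp per count of Lgals3 were 8.06 in control mIOs and 3.97 in DSS-treated mIOs.

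**Figure D3:**
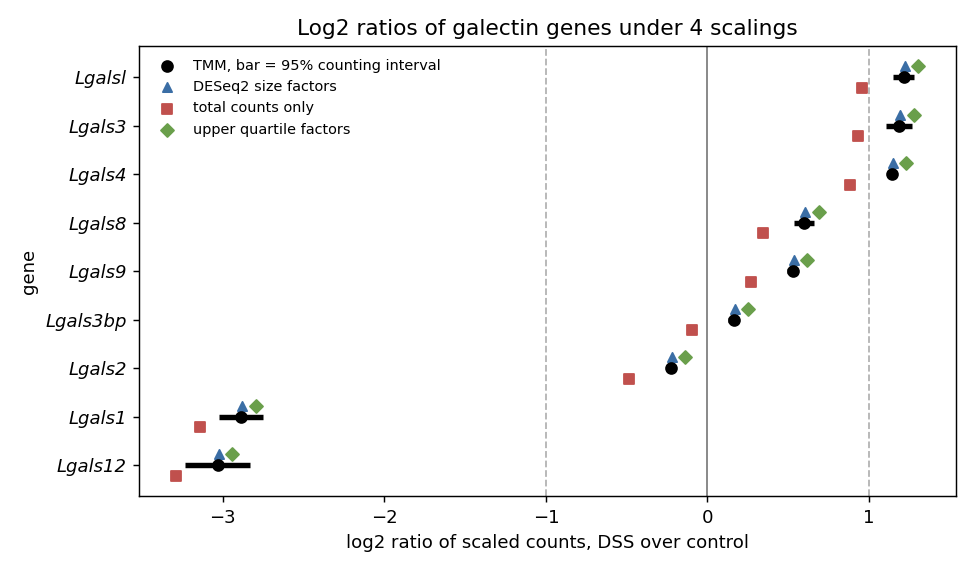
Log2 ratio of scaled counts, DSS over control (horizontal axis), of each gene (vertical axis) with TMM factors (black, bar for the 95% counting interval), DESeq2 size factors, total counts and upper quartile factors, with dashed lines at -1 and 1. Total counts place every gene further left, which takes Lgals3 and Lgals4 below 1 and Lgals3bp below 0, while Lgals1 and Lgals12 stay past -2.

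Of 4 further genes of the galectin fold that were looked for, Lgals12 and Lgalsl were in the table, and Lgals7 and Grifin were not. Lgals12, a tandem-repeat galectin known from fat cells, had 2365 counts in control mIOs and 221 counts in DSS-treated mIOs, or 12.0 and 1.47 scaled counts per kilobase (CPM per kilobase of transcript). Its log2 ratio was -3.03, with an interval from -3.24 to -2.83, next to that of Lgals1. The counts of Lgals12 per count of Lgals1 were 0.496 and 0.448, a change of -0.15 on the log2 scale with an interval from -0.38 to 0.09. Lgalsl, a galectin-related gene, had 3006 and 5332 counts, or 42.0 and 97.5 CPM, and a log2 ratio of 1.22 (interval 1.15 to 1.28), which was 0.96 with total counts.

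Levels of different galectins were compared per kilobase of the longest annotated transcript, since long transcripts give more counts at the same number of molecules. In the control library, Lgals2 at 1028 and Lgals4 at 976 CPM per kilobase stood far above Lgals9 at 125, Lgals1 at 83.3, Lgals8 at 18.7 and Lgals3 at 18.4. In the DSS library, Lgals4 at 2152 came first, followed by Lgals2 at 878, Lgals9 at 180, Lgals3 at 41.9, Lgals8 at 28.4 and Lgals1 at 11.3. The abundant pair thus changed places, and Lgals1 went from the fourth to the last place. The control levels of the pair were close, at 1028 for Lgals2 and 1007 for Lgals4 with the median transcript length. Without replicates, it is not known which neighbours in these orders differ beyond the spread between cultures. Lgals3 and Lgals8 changed places in the control library when the median transcript length was used, at 30.4 and 20.5 CPM per kilobase.

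**Figure D4:**
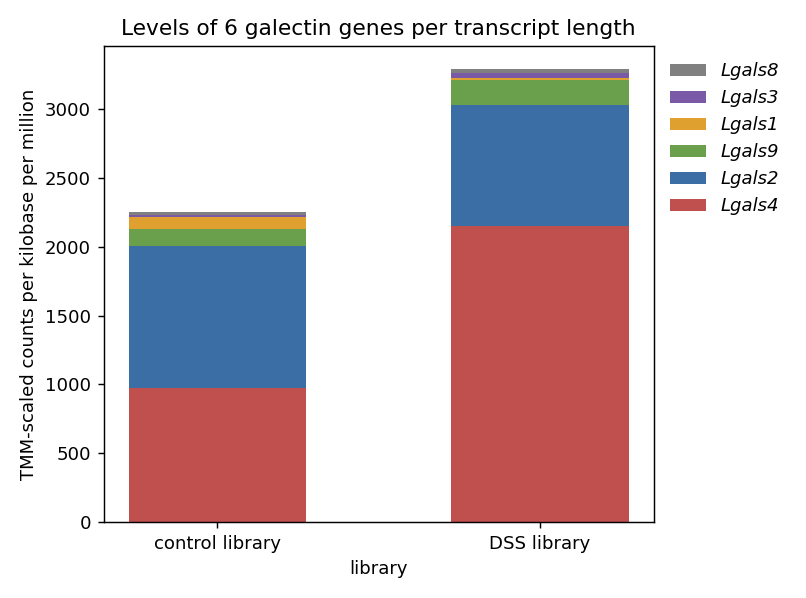
Stacked bars of the level per transcript length (TMM-scaled CPM per kilobase) of 6 galectin genes in the control and the DSS library. The Lgals4 segment grows from 976 to 2152 and the Lgals2 segment shrinks from 1028 to 878, and the Lgals1 segment is barely visible in the DSS library.

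On this scale Lgals4 made up 43.4% of the sum of the 6 galectins in control mIOs and 65.4% in DSS-treated mIOs, and Lgals2 45.7% and 26.7%. Lgals1 made up 3.70% and 0.342%. By counts, the 6 galectins took 0.252% of all control counts and 0.360% of all DSS counts, shares that carry no TMM factor. With TMM factors, their sum had a log2 ratio of 0.77 (interval 0.76 to 0.78). Without Lgals4, the other 5 galectins had 68213 counts in control mIOs and 52226 counts in DSS-treated mIOs, and their sum had a log2 ratio of 0.00 (interval -0.01 to 0.02), or -0.25 with total counts. Within a library, the counts of Lgals4 per count of Lgals2 were 2.22 in control mIOs and 5.73 in DSS-treated mIOs. This is a change of 1.37 on the log2 scale, with an interval from 1.34 to 1.39.

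Genes of brush border proteins, some of which galectin-4 helps to carry to the apical membrane, were higher in the DSS library, and most of them by more than Lgals4. Of 22 listed brush border genes, 20 were at 1 or more, beside 19.3% of all genes, and none at -1 or less, with a median log2 ratio of 2.38. Alpi, the intestinal alkaline phosphatase, was at 90.4 CPM in control mIOs and 1383 CPM in DSS-treated mIOs, a log2 ratio of 3.94. Slc15a1, the peptide transporter, was at 5.53 and 140 CPM, a log2 ratio of 4.66, and Anpep, the aminopeptidase N, at 894 and 2115 CPM, a log2 ratio of 1.24. Tmprss15, which activates trypsinogen, had 2 and 62 counts, so that it passed the minimum only through the DSS library and its log2 ratio of 5.34 had a wide interval from 3.43 to 8.42. The log2 ratio of 20 of the 22 genes was above that of Lgals4.

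Enzymes that build and cap galactose-containing glycans set which ligands galectins find. Of 34 listed enzymes of N-acetyllactosamine and O-glycan synthesis and capping, 32 were in the table, with a median of 0.47, or 0.21 with total counts. Of these 32, 10 reached 1 and 3 reached -1, beside 19.3% and 20.2% of all genes. The other 19 were within 1 of 0, a share close to the 60.5% of all genes. Of those past the lines, B3gnt6 (9 and 14 counts), B3gnt8 (15 and 3 counts) and B4galt2 passed the minimum of 10 counts only through the library where they are higher, and the median was 0.48 with that minimum in both libraries. St3gal4, which caps galactose with sialic acid, had the highest CPM of the list in both libraries, at 296 CPM in control mIOs and 1836 CPM in DSS-treated mIOs, a log2 ratio of 2.63 (interval 2.61 to 2.66). Gcnt1 and Gcnt3, which branch O-glycans, had log2 ratios of 2.96 and 2.83, and Gcnt1 had 65 counts in the control. B4galt2, a galactosyltransferase, had 68 counts in control mIOs and 8 in DSS-treated mIOs, a log2 ratio of -2.70. Mgat5, whose branched N-glycans are favoured ligands of galectin-3, was at 128 and 180 CPM, a log2 ratio of 0.50, and was named for this role and not by its size.

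Of 15 listed enzymes of glycolipid synthesis, 14 were in the table, 5 at 1 or more and none at -1 or less, beside 19.3% and 20.2% of all genes. The median was 0.58, or 0.32 with total counts. The list shares 2 genes, B4galt5 and B4galt6, with the list of glycan enzymes, and B4galt5, at 1.03, is counted past 1 in both. Gal3st2, a galactose sulfotransferase, had 304 and 1642 counts, a log2 ratio of 2.82. Ugcg, which makes glucosylceramide, was at 93.1 and 215 CPM, a log2 ratio of 1.21, and Cers6, a ceramide synthase, at 194 and 285 CPM, a log2 ratio of 0.55. Fa2h, which hydroxylates the fatty acids of these lipids, had 17 and 57 counts. Ugt8a, which makes galactosylceramide, had no row in the table.

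Glycoproteins on the cell surface and in the matrix are the ligands that galectins cross-link. The glycoprotein list holds genes of such proteins and also of partner proteins inside the cell, such as Hras, Ctnnb1, Tsg101, Pdcd6ip and P4hb. Of its 29 genes, 26 were in the table and 25 had 10 or more counts in either library. Of these 25, 3 reached 1 and 3 reached -1, beside 19.3% and 20.2% of all genes. Itga5, with 13 and 4 counts, passed the minimum only through the control. The median of 0.18 was -0.08 with total counts, so its direction depends on the scaling. Slc2a2, the glucose transporter GLUT2, was at 50.7 CPM in control mIOs and 399 CPM in DSS-treated mIOs, a log2 ratio of 2.98, and Muc13, a transmembrane mucin, was at 732 and 2584 CPM, a log2 ratio of 1.82. Cd44 was lower, at 50.4 and 20.6 CPM, a log2 ratio of -1.29, and Bsg, the most abundant of the list in the control, was at 2351 and 1288 CPM, a log2 ratio of -0.87. Havcr2, which encodes Tim-3, and Ptprc, which encodes the galectin-1 ligand CD45, had no row in the table.

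Of the genes of factors that act with galectin-3 and galectin-8 at damaged lysosomes and vacuoles, 28 of 32 were within 1 of 0, beside 60.5% of all genes. Of 33 listed genes, 32 were in the table, 4 at 1 or more and none at -1 or less, beside 19.3% and 20.2% of all genes. The median was 0.28, or 0.03 with total counts. Map1lc3a, an LC3 protein of the autophagosome, was at 6.30 CPM in control mIOs and 15.7 CPM in DSS-treated mIOs, a log2 ratio of 1.32. Ubxn6 was at 15.6 and 38.0 CPM, a log2 ratio of 1.28, while its partner Vcp, the most abundant of the list in the control, was at 382 and 321 CPM, a log2 ratio of -0.25. Gabarapl2 had a log2 ratio of 1.03. Trim16, which works with galectin-3 at damaged membranes, was at 28.4 and 34.6 CPM and was named for this role.

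**Figure D5:**
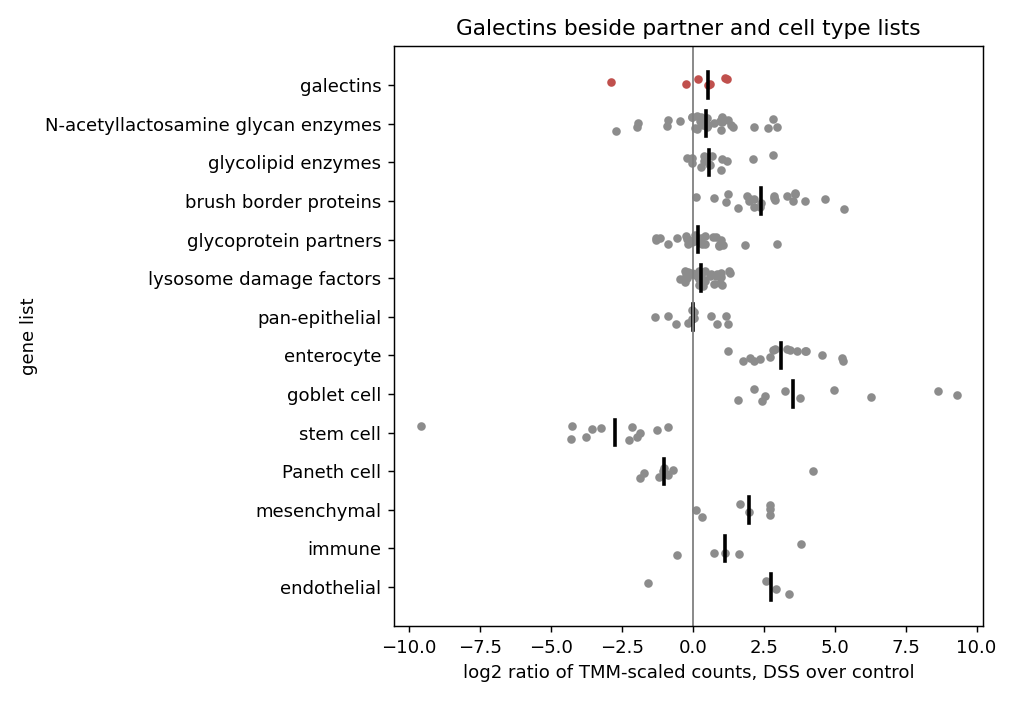
Log2 ratio of TMM-scaled counts, DSS over control (horizontal axis), of each gene with 10 or more counts in either library in the galectin, partner and cell type lists (vertical axis), with a black bar at each median. The galectins spread from -2.89 to 1.19 around a median of 0.53, while the brush border, enterocyte and goblet cell lists lie to the right and the stem cell list to the left.

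Cell type markers moved beside the galectins, and their part in the results was not tested. Pan-epithelial markers were all in the table, with a median log2 ratio of 0.00 over 12 genes (-0.25 with total counts), and Krt8 was at 1677 CPM in control mIOs and 3010 CPM in DSS-treated mIOs. Krt19 and Vil1 had log2 ratios of 1.15 and 1.25, near that of Lgals4, and Cdx2 one of -1.35. All 12 markers of the labelled cell type, intestinal stem cells, were in the table and below 0, 11 of them at -1 or less, beside 20.2% of all genes, with a median of -2.74 and a summed level of 2309 CPM in control mIOs and 466 CPM in DSS-treated mIOs. Their most abundant gene in the control, Slc12a2, was at -3.25, and Olfm4 at -9.59, Ascl2 at -4.31 and Axin2 at -4.26 were lowest. The log2 ratio of Lgals1 lay within the range of this list, with 6 of the 12 markers above it and 6 below.

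All 16 enterocyte markers were at 1 or more, beside 19.3% of all genes, with a median of 3.10 and summed levels of 4924 and 37096 CPM, and 5 of them are also in the brush border list. Each of the 16 had a higher log2 ratio than Lgals4 and Lgals3. Ada was at 5.30, Apoa1 at 5.27 and Apoa4 at 4.54. All 10 goblet cell markers were at 1 or more, beside the same 19.3%, from Spink4 at 1.60 to Clca1 at 9.29. Their median was 3.51, with summed levels of 868 and 11727 CPM. Ccl6, with 4 and 235 counts, passed the minimum only through the DSS library, where it is higher, and the median without it was 3.25. Of 9 Paneth cell markers other than defensins in the table, 5 were at -1 or less, beside 20.2% of all genes, and 1, Pnliprp2 at 4.24, at 1 or more. Sox9, at -1.86, is also in the stem cell list. The median was -1.03, or -0.94 with upper quartile factors and -1.29 with total counts. Lyz1, the Paneth cell lysozyme, was at -1.06 and Itln1 at -1.03, both close to the line of -1. The summed level of the Paneth list was 730 CPM in control mIOs and 1430 CPM in DSS-treated mIOs. Of this, Pnliprp2 made up 57.9 and 1094 CPM.

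Markers of cells outside the epithelium were at low levels in both libraries. Of 16 mesenchymal markers, 8 were in the table, and their summed level was 6.82 CPM in control mIOs and 36.7 CPM in DSS-treated mIOs, of which Vim made up 5.23 and 34.0 CPM. Vim had a log2 ratio of 2.70. With 10 or more counts in either library, 7 genes had a median log2 ratio of 1.97, with 5 at 1 or more and none at -1 or less, beside 19.3% and 20.2% of all genes. Of these 7, 4 passed only through the DSS library, where they are higher, so this count supports nothing. Besides Vim, Col1a1 with 29 and 24 counts and Pdgfrb with 67 and 64 counts passed in both libraries, and the median over these 3 genes was 0.32. Col1a2, Col3a1, Dcn and Lum had no row. Lgals1 was at 66.7 CPM in the control, beside this sum of 6.82 CPM. In the DSS library it was at 9.02 CPM, beside a sum of 36.7 CPM. Per kilobase, Lgals1 was at 83.3 and Vim at 2.38 CPM in the control, and at 11.3 and 15.5 CPM in the DSS library. Which cells the Lgals1 reads came from was not tested. Of 20 immune markers, 7 were in the table, with summed levels of 14.4 and 25.3 CPM. With 10 or more counts in either library, 5 genes had a median log2 ratio of 1.14, with 3 at 1 or more and none at -1 or less, beside the same shares. C1qa with 3 and 32 counts and Csf1r with 9 and 21 counts passed only through the DSS library. The other 3, Cd68, Itgam and Lyz2, had log2 ratios of 0.73, 1.14 and -0.56. Ptprc, Cd3e, Adgre1 and Itgax had no row, and Cd68 and Itgam, the most abundant, reached 11.4 and 11.5 CPM in the DSS library. Of 8 endothelial markers, 4 were in the table, and Egfl7 at 10.3 CPM in control mIOs and 3.40 CPM in DSS-treated mIOs was the most abundant. Tek had 12 and 97 counts, Pecam1 12 and 55, and Tie1 5 and 29, and the summed level was 10.7 and 6.71 CPM. A gene without counts in one of the libraries has no row, so its level in the other is not known here.

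The genes nearest to the 3 members with the highest control CPM were found over the 2 libraries, by the distance between log2 CPM values. Lgals4 was nearest to Actb, a cytoskeletal actin, at a distance of 0.18, and to Atp1b1, a subunit of the sodium pump, at 0.21. Lgals2 was nearest to Slc38a1 at 0.09 and Serinc3 at 0.12, and Lgals3bp to Afdn at 0.02 and Mtch2 at 0.05. With 2 libraries, this likeness is one of level and ratio only.

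Some members overlap a gene on the other strand. The library kit was stranded, and the strand setting of the counting is not given in the sources used here, so reads of such pairs may not have been told apart. Of 592 exon bases of Lgals2, 38 are shared with Cdc42ep1 on the other strand, which had 3301 counts in control mIOs and 652 in DSS-treated mIOs. Of 3688 exon bases of Lgals8, 155 are shared with Heatr1, which had 2500 and 616 counts. The longest transcript of Lgals4 shared no stretch of 50 bases with the transcripts of the other members or of Lgals7, Lgals12 and Lgalsl, and Lgals6 was not compared.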

How the data were processed

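The mRNA of 1 control culture and 1 DSS-treated culture of mIOs was sequenced, with 65493032 and 59746968 counts. The deposited values are the authors' raw read counts for each gene, and the submitters' processing notes name HISAT2 and StringTie without versions. The genome build and the counting settings are not given in the sources used here. The single-sample files are named as FPKM but held the same counts for all 19294 genes. Every row has a count above 0 in both libraries.

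Counts were scaled to CPM with TMM factors of edgeR 4.0.16 under R 4.3.3, which were 1.09 for the control and 0.915 for the DSS library. Log2 ratios were given exact Clopper-Pearson 95% intervals, which cover counting error only. Their calculation was checked on counts simulated with counting error alone. This is what the intervals assume, so the check says nothing about the spread between cultures. Intervals for a ratio of counts of a pair of genes used the normal approximation on the log scale. With 1 library per condition, no p-value, SD or SE was computed. Medians and numbers of genes used genes with 10 or more counts in either library, unless both libraries are named. Transcript lengths, loci and shared stretches came from GENCODE vM21 (GRCm38), and promoters from RefSeq (GRCm38.p6).

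The members, the 13 gene lists, the named genes and the motifs were chosen with earlier results of these data known. Named genes were the members, present relatives, the 3 largest absolute log2 ratios and the highest control level in each list (50 or more counts in either library), and the 2 genes nearest to each of the 3 members with the highest control CPM. The text leaves out some of these genes. Mgat5, Trim16, Spink4, Ugt8a and genes without a row were named for their role or place. Muc2 and Lgr5 were named because the paper measured them by RT-PCR. Col1a1, C1qa, Csf1r, Tie1, B3gnt6, B3gnt8, Itga5, Itln1 and Gal3st1 were named after their values were seen. Total counts, upper quartile factors and size factors of DESeq2 1.42.0 were tried as other scalings, as were thinning, a prior count of 2, other count minimums, a line of 2 and the median transcript length. Centering and a minimum of 1000 counts were added after the data were seen. Python 3.11.15, scipy 1.17.1, pandas 2.3.3 and matplotlib 3.10.9 were used.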

Additional observations from a re-analysis of the deposited data

How the results depend on the processing

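With total counts, which shifted the median of all genes by -0.26, the log2 ratios were -3.14 for Lgals1, -0.48 for Lgals2, 0.93 for Lgals3, 0.88 for Lgals4, 0.34 for Lgals8, 0.27 for Lgals9 and -0.093 for Lgals3bp, and 0 members were at 1 or more, beside 2659 genes of the 17235. At -1 or less were 4508 genes. With upper quartile factors they were -0.14 for Lgals2, 1.28 for Lgals3, 1.23 for Lgals4, 0.69 for Lgals8, 0.62 for Lgals9 and 0.25 for Lgals3bp. Centering on the median of all genes gave -0.17 for Lgals2, 1.198 for Lgals4, 0.58 for Lgals9 and 0.22 for Lgals3bp. These 3 settings move every gene by one factor. With DESeq2 size factors, a prior count of 2 and thinning, each member stayed within its counting interval. The line of 2 left 1356 genes at or above it and 1127 at or below -2. A minimum of 1000 counts left 1149 genes at 1 or more, 1586 at -1 or less, and 15 listed genes at -1 or less. Of 115 list medians under the alternatives, 3 changed sign, those of the glycoprotein list with total counts (-0.08) and of the pan-epithelial list with total counts (-0.25) and with thinning (-0.002).

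Summing Lgals4 with Lgals6 was not run, since Lgals6 has no row. No paired analysis was possible because each condition has 1 library, and no library was left out for the same reason. The lowest count behind a member was 493, for Lgals1 in the DSS library. The intervals do not cover the variation between cultures.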
